A study of Mus musculus with 6 samples.

Results

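Hmgcs1, Mvd, Idi1, Fdft1, Sqle, Srebf2 and Insig1 are 7 genes of cholesterol synthesis and its control, of 55538 features in a count table of mouse peritoneal cells. They were listed by name, and their levels were read in macrophages, B cells and T/NK cells, in 3 groups of macrophages and in each of 6 libraries. Resident peritoneal cells from mice labelled C57BL/6 (wild-type controls were C57BL/6J per the study's methods), aged 8 to 12 weeks, were plated for 1 h, washed and profiled by droplet single-cell RNA-seq, which tags each captured transcript with a unique molecular identifier (UMI). The 6 libraries were MerTK+/+ and MerTK-/- cells given a media change (controls), and cells of both genotypes cultured for 2 h or 6 h with apoptotic cells (ACs). The ACs were human GFP-Jurkat T cells exposed to UV light, added at 5 per peritoneal cell. MerTK is an efferocytosis receptor, and the MerTK-/- mice carry the MerKD allele backcrossed to C57BL/6J. Each library pooled cells of 3 mice, so no spread between animals can be read. The number that closes each barcode, 1 to 6, names its library, but no label ties these numbers to conditions. The values below are therefore over the pool of 6 libraries or by library number, with no comparison between conditions and no p-value.

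Cells build cholesterol from acetyl-CoA through mevalonate, isoprenoid units and squalene. When sterol in the endoplasmic reticulum is low, the transcription factor SREBP2, the product of Srebf2, is released from its INSIG anchor and raises the genes of the pathway, among them Srebf2 and Insig1 themselves. Macrophages that take up dying cells also take in their cholesterol, which is esterified or exported. Hmgcs1 makes HMG-CoA, Mvd makes isopentenyl diphosphate from mevalonate diphosphate, and Idi1 isomerizes that unit. Fdft1 makes squalene, and Sqle oxidizes it in the first oxygen-requiring step.

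The genes lie on GRCm38, in the GENCODE vM21 annotation, at these places. Hmgcs1 spans positions 119690379 to 119708260 of chromosome 13 on the plus strand. Idi1 spans 8885501 to 8892451 of the same chromosome, also on the plus strand. Sqle (59315077 to 59331192) and Srebf2 (82147181 to 82205379) are both on the plus strand of chromosome 15. Insig1 is on the plus strand of chromosome 5 from 28071363 to 28078662. Fdft1 is on the minus strand of chromosome 14 from 63145150 to 63179578, and Mvd on the minus strand of chromosome 8 from 122433601 to 122443422. The Fdft1 model shares 774 bases with Ctsb, a lysosomal protease gene on the opposite strand that had 2293 CPM in macrophages and 386 CPM in B cells. Whether the authors' counting used strand is not given in the sources used here, so Fdft1 reads are uncertain where the models meet. Srebf2 shares 2110 bases with Gm49502 on its own strand, which had 4.43 CPM in macrophages and 7.68 CPM in B cells. The Mvd model lies inside a longer model on the other strand, Gm20388, which had no UMI in macrophages, B cells or T/NK cells.

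RefSeq (GRCm38.p6) gave a promoter window for 5 of the 7 genes, Hmgcs1, Insig1, Idi1, Srebf2 and Mvd, and none for Sqle and Fdft1. The 250 bases before the start are shown for 4 of them, chosen by their pattern over libraries in macrophages. There Hmgcs1, Insig1 and Srebf2 were highest in library 6 and lowest in library 2, whereas Mvd was highest in library 3 and lowest in library 5. Idi1, which is not shown, was also highest in library 6 but lowest in library 3. Capitals mark TCACNCCAC or TCACCCCA (forms of the sterol regulatory element, to which SREBP2 binds) and CCAAT (the site of NF-Y), which reads ATTGG where it lies on the other strand.
Hmgcs1, chr13:119690101-119690350, plus strand: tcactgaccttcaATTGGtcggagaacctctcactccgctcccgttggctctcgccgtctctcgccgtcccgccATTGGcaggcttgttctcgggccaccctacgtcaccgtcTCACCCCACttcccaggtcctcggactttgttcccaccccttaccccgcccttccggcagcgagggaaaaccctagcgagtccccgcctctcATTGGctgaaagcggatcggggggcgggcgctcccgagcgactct
Srebf2, chr15:82147019-82147268, plus strand: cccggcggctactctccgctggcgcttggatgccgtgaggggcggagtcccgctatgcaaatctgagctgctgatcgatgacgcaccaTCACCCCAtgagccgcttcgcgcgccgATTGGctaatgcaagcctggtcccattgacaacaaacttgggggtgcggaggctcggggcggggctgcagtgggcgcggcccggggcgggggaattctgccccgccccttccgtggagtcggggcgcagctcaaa
Insig1, chr5:28071162-28071411, plus strand: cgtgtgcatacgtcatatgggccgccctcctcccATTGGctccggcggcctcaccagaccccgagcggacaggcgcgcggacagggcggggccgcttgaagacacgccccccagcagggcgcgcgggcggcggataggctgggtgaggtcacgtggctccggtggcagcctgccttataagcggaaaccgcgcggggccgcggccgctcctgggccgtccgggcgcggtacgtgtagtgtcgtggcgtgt
Mvd, chr8:122443423-122443672, minus strand: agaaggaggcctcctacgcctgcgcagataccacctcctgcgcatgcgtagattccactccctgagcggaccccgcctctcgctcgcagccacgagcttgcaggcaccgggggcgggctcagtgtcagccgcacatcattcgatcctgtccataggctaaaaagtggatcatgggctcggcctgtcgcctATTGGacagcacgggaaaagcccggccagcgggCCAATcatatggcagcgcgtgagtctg
In windows of 250 bases before and 50 after the start, searched on both strands, TCACNCCAC was found in Hmgcs1 and in none of the other 4, and in 1.24% of all 32851 windows. The form TCACCCCA, added after the windows were seen, overlaps it in Hmgcs1 and was also in Srebf2, at 137 and 162 bases before the start, against 1.56% of all windows. A longer form of the element, within which both of these lie, was in none of the 5 windows and in 0.0913% of all. CCAAT was in all 5, with 4 matches in Hmgcs1, 2 each in Idi1 and Mvd, and 1 each in Srebf2 and Insig1, but also in 37.4% of all windows. The letters GGGCGG, a core of GC boxes, were in all 5 and in 35.7% of all windows.

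The table held 7760 barcodes and 40172124 UMIs, from 4234786 UMIs in library 6 to 10287079 in library 1, and 7665 barcodes passed the cell filters. Macrophages were cells with at least 2 UMIs of Csf1r, Adgre1 and Fcer1g, at most 2 of Cd79a and Cd79b, and at most 1 of Cd3d, Cd3e and Nkg7. These were 2773 cells with a median of 4426 UMIs. B cells had at least 4 UMIs of Cd79a and Cd79b (2948 cells, median 5416), and T/NK cells at least 2 of Cd3d, Cd3e and Nkg7 (514 cells, median 2813.5). The 153 cells that passed both lymphocyte gates were put in neither class, and 1277 cells were in no class, 514 of them in library 6. There were 28 barcode sequences that occurred in more than 1 library, in 56 barcodes. The class names fitted markers that the gates did not use. Lyz2 was at 15081 CPM in macrophages, 245 in B cells and 1914 in T/NK cells. Summed Ms4a1, Ighm, Cd22, Pax5 and Ebf1 were at 2900 CPM in B cells and 24.6 in macrophages. The T/NK class carried macrophage RNA. All 7 macrophage check genes had UMIs in it, at 2716 CPM in sum against 20046 in macrophages and 557 in B cells, from 131 to 5610 CPM by library. Of its cells, 47 (9.14%) had at least 2 UMIs of the macrophage gate genes, and the part of this RNA in the T/NK values was not tested.

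Summed over the 7 genes, macrophages had 249 CPM (95% interval 240.4–257), B cells 267.5 CPM (260.1–275) and T/NK cells 134 CPM (118–152). CPM is a gene's UMIs per 1000000 UMIs of the class, and the intervals are exact and cover counting error only. The log2 ratio of the sum, macrophages over B cells, was -0.11 (-0.17 to -0.04), but 0.11 when genes above 1% of UMIs were left out of the totals and 0.081 at 1500 UMIs per cell. These sums were made up of different genes. In macrophages Mvd, Insig1 and Hmgcs1 were higher, in B cells Idi1 and Srebf2 were higher, and the intervals for Sqle and Fdft1 overlapped.

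**Figure D1:**
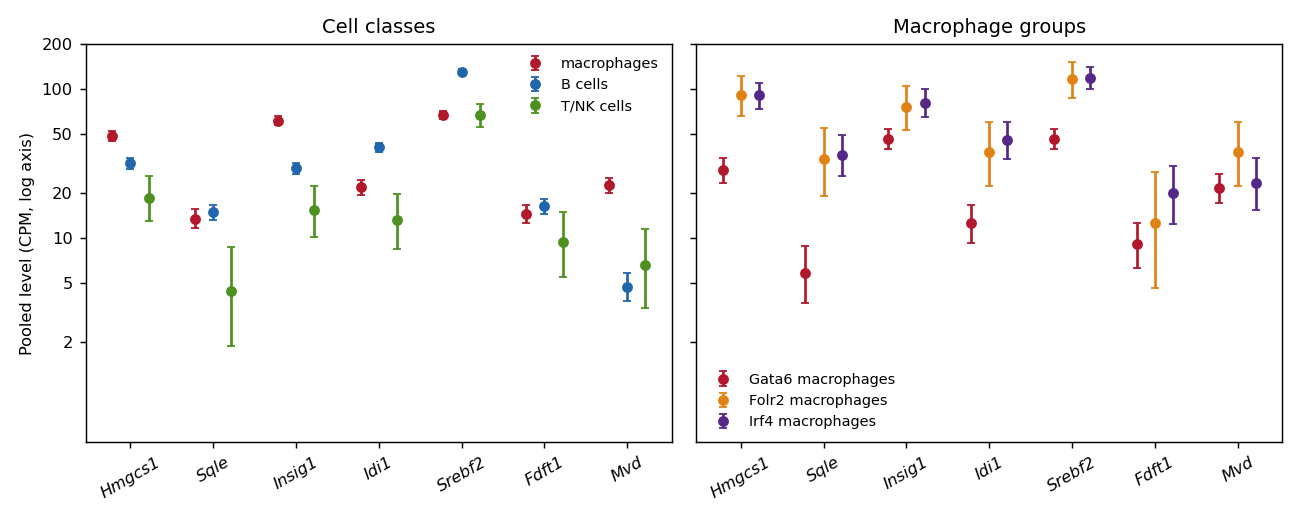
Pooled level of each of the 7 genes (CPM, log axis) in the 3 cell classes, left, and in the 3 macrophage groups, right, with exact Poisson 95% intervals. Mvd stands at 22.6 CPM in macrophages and 4.71 in B cells, whereas Srebf2 stands at 66.8 and 129.8.

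Mvd gave the widest separation. It had 311 UMIs in macrophages, 22.6 CPM (20.1–25.2), against 87 UMIs and 4.71 CPM (3.77–5.80) in B cells and 12 UMIs and 6.60 CPM (3.41–11.5) in T/NK cells. By library it ran in macrophages from 15.4 CPM in library 5 through a median of 20.4 to 39.8 in library 3, and in B cells from 4.19 in library 2 through a median of 4.73 to 5.22 in library 4. The 2 ranges did not overlap. The log2 ratio of macrophages over B cells was 2.26 (1.91–2.62), a fold of 4.80, and it was above 0 in 6 of 6 libraries, from 1.73 to 3.06. B cells and T/NK cells could not be separated for Mvd, with a log2 ratio of -0.49 (-1.37–0.52).

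Hmgcs1, the enzyme that acts earliest of the 7, was ordered macrophages, B cells, T/NK cells at 48.1 (44.5–51.9), 31.7 (29.2–34.4) and 18.7 CPM (12.9–26.1), with no overlap of the intervals. In macrophages the libraries ran from 35.6 CPM in library 2 through a median of 51.1 to 56.5 in library 6. In B cells they ran from 22.8 in library 4 through a median of 28.4 to 82.9 in library 6. Library 6 of the B cells thus stood above all 6 macrophage values. Macrophages over B cells gave a log2 ratio of 0.60 (0.44–0.76), above 0 in 5 of 6 libraries, from -0.55 to 1.16.

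Idi1 had the opposite order, with 40.7 CPM in B cells (37.8–43.7), 21.8 in macrophages (19.4–24.5) and 13.2 in T/NK cells (8.46–19.6). The interval of T/NK cells reached into that of macrophages. Macrophage libraries ran from 11.6 CPM in library 3 through a median of 19.9 to 37.3 in library 6, and B cell libraries from 25.1 in library 4 through a median of 40.8 to 74.3 in library 6. The ranges overlapped, but within each library macrophages were the lower class. Their log2 ratio was -0.90 (-1.09 to -0.70), with library values from -2.13 to -0.31.

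Fdft1 and Sqle, the enzymes around squalene, did not separate macrophages from B cells at this depth. Fdft1 was at 14.5 CPM in macrophages (12.6–16.7), 16.3 in B cells (14.5–18.2) and 9.35 in T/NK cells (5.45–15.0), with a log2 ratio of macrophages over B cells of -0.17 (-0.43–0.10). Sqle was at 13.5 (11.6–15.6), 14.9 (13.2–16.7) and 4.4 CPM (1.90–8.67), with a ratio of -0.14 (-0.42–0.13). Sqle was higher in macrophages in 3 of 6 libraries and Fdft1 in 1 of 6. By library, Fdft1 ran from 10.1 to 17.3 CPM in macrophages and from 14.4 to 18 in B cells, and Sqle from 9.67 to 21.8 and from 9.14 to 26.6. After every cell was thinned to 1500 UMIs, the Sqle ratio of macrophages over B cells was 0.51.

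Srebf2, the regulator itself, was at 129.8 CPM in B cells (125–135), 66.8 in macrophages (62.5–71.2) and 66.5 in T/NK cells (55.2–79.5), and the last 2 could not be told apart. Its log2 ratio of macrophages over B cells was -0.96 (-1.07 to -0.85), below 0 in 6 of 6 libraries, from -1.51 to -0.52. The library ranges did not overlap, with a lowest of 45.0, a median of 69.0 and a highest of 86.7 CPM in macrophages and 112, 130.1 and 185 CPM in B cells. A UMI of Srebf2 was found in 48.5% of B cells (46.7–50.3%) and 26.2% of macrophages (24.6–27.9%), and at 1500 UMIs per cell in 17.0% (15.7–18.5%) and 9.59% (8.50–10.8%). Shares and levels thus had the same order.

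Insig1, the anchor that holds SREBP2 back, was ordered the other way, with 61.3 CPM in macrophages (57.3–65.6), 29.4 in B cells (27.0–32.0) and 15.4 in T/NK cells (10.2–22.3). Macrophage libraries ran from 54.5 CPM in library 2 through a median of 60.0 to 79.0 in library 6, and B cell libraries from 19.3 in library 4 through a median of 30.3 to 46.9 in library 6, without overlap. Macrophages over B cells gave a log2 ratio of 1.06 (0.90–1.22), above 0 in 6 of 6 libraries, from 0.75 to 1.73. At 1500 UMIs per cell, 9.22% of macrophages (8.15–10.4%) and 3.75% of B cells (3.09–4.50%) had an Insig1 UMI.

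A 2-fold difference between macrophages and B cells was reached by 2 of the 7 genes, Mvd and Insig1, both higher in macrophages, and by none in the other direction. Insig1 and Srebf2 lay near that limit. Without library 4 the log2 ratio of Insig1 was 0.94 and that of Srebf2 -1.08, and at equal weight of libraries Srebf2 was at -1.01. With B cells taken from 2 UMIs of Cd79a and Cd79b, Insig1 was at 0.97 and Idi1 at -1.02. The count of 2 thus held under these settings with other members in it, or became 3, and Mvd was past 2-fold in each. Of 9394 features with a mean of at least 5 CPM in the pair, 19.4% were at least 2-fold higher in macrophages and 23.3% at least 2-fold lower. One direction over the libraries was also common among all features, since 28.3% were higher in macrophages in all 6 libraries and 35.5% lower, against 2 (Mvd and Insig1) and 2 (Idi1 and Srebf2) of the 7. The ranges over libraries did not overlap for 3 of the 7 (Mvd, Insig1 and Srebf2) and for 42.3% of features. The median log2 ratio of the 7 was -0.13 and that of all features -0.14, with 1 CPM added. Between macrophages and T/NK cells, 4 of 7 (Hmgcs1, Sqle, Insig1 and Mvd) were at least 2-fold higher in macrophages, against 20.2% of features. That count ran from 3 to 5 over the alternatives. With cells past both lymphocyte gates kept in both classes Sqle went from 1.62 to 0.21, and at equal weight of libraries Hmgcs1 was at 0.89 and Idi1 at 1.47. Between B cells and T/NK cells, 2 of 7 (Sqle and Idi1) were at least 2-fold higher in B cells, against 9.85% of features. This second count was 5 with stricter gates, 4 without library 5, and 0 when cells past both lymphocyte gates were kept in both classes.

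Other genes of the pathway were compared by lists named for their roles. Of 14 other sterol synthesis enzymes, 8 reached a mean of 5 CPM over macrophages and B cells. None was 2-fold higher in macrophages, and Fdps (8.42 against 21.6 CPM), which supplies farnesyl diphosphate to Fdft1, was over 2-fold lower. The list's median log2 ratio was -0.16 with 1 CPM added, or -0.17 without. Of 6 genes of the SREBP machinery, Scap, the escort of SREBP2, was over 2-fold lower in macrophages, at 9 against 19.8 CPM, and none was 2-fold higher. Beside both lists, 23.3% of all features were at least 2-fold lower in macrophages.

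Genes for taking up, moving and exporting cholesterol differed among themselves. Of 3 uptake and transport genes, 2 were over 2-fold higher in macrophages, the lysosomal cholesterol transporters Npc1 (78.5 against 19.8 CPM) and Npc2 (675 against 189 CPM), beside the 19.4% of all features that were so. Stard4, which carries sterol through the cytosol, was at 20.2 against 18.8 CPM, a log2 ratio of 0.10 (-0.13–0.34). Of 6 measured genes of sterol excess and efflux, 3 were over 2-fold higher. Abca1, which exports cholesterol, was at 453 against 43.1 CPM, and Soat1, which esterifies it, at 174 against 28.9 CPM. Ch25h, which makes 25-hydroxycholesterol, had 233 UMIs in macrophages and 0 in B cells, at least 104-fold higher with a floor of 3 UMIs over the B cell pool. Without library 3, 130 of the 233 UMIs were left and the bound was 52.2-fold. The exporter Abcg1 was just under 2-fold, at 0.98 (0.78–1.19). Mylip, a ubiquitin ligase induced by sterol excess, at -0.41 (-0.56 to -0.26) and Nr1h2, a sterol-sensing nuclear receptor, at -0.32 (-0.45 to -0.19) had ratios below 0. The median log2 ratios of these lists were 1.83 and 1.75 with 1 CPM added, and the latter was 1.79 with Ch25h at its bound.

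**Figure D2:**
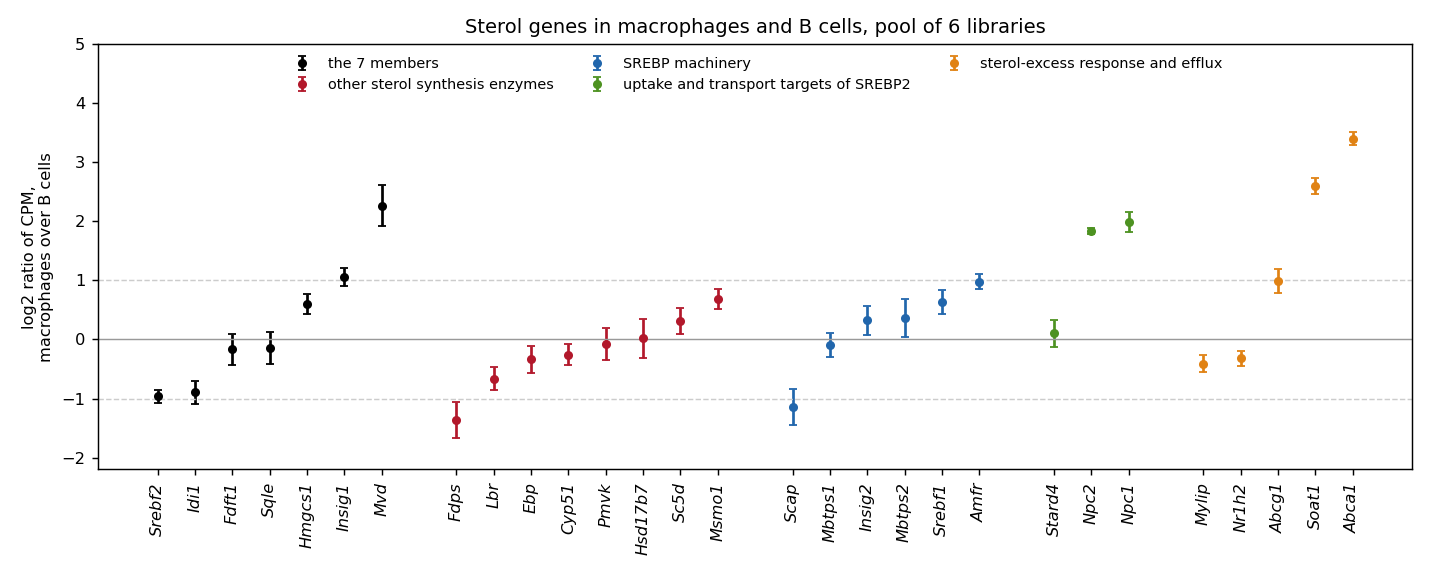
Log2 ratio of CPM in macrophages over B cells for the 7 genes and 4 lists of pathway genes, over the pool of 6 libraries, with exact 95% intervals; dashed lines mark 2-fold. The 7 genes run from -0.96 for Srebf2 to 2.26 for Mvd, while Npc1, Npc2, Soat1 and Abca1 all lie above the upper line. Ch25h, with 0 UMIs in B cells, has no ratio and is not drawn.

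The fatty acid and isoprenoid lists did not move to one side. Of 6 measured fatty acid synthesis genes, 2 were over 2-fold lower in macrophages, Scd1 (6.31 against 208 CPM) and Fasn (9.58 against 55.4 CPM). Another 2 were over 2-fold higher, Acaca (87.4 against 23.1 CPM) and Me1, with 208 UMIs in macrophages and 2 in B cells, where the log2 ratio of 7.12 had an interval of 5.25–10.18. Both Me1 UMIs of B cells were in library 2. Of all features, 23.3% were at least 2-fold lower in macrophages and 19.4% at least 2-fold higher. Without library 6 the Scd1 ratio went from -5.04 to -6.05. None of 4 measured genes of the isoprenoid branch was past 2-fold.

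Macrophages were split by single transcripts. The Gata6 group (624 cells, median 5553 UMIs) had a UMI of Gata6, the factor of large peritoneal macrophages, the Folr2 group (103 cells, median 4273) one of Folr2, and the Irf4 group (236 cells, median 4036) one of Irf4, each with none of the other 2. Another 1758 macrophages had none of the 3 and 52 had more than 1. Some genes not used in the split fitted these groups, but not all genes of the check lists did. Selp was at 239 CPM in the Gata6 group, 10.5 in the Folr2 group and 21.8 in the Irf4 group. Lyve1 was at 118 CPM in the Folr2 group and at 3.20 and 9.97 in the Gata6 and Irf4 groups. Retnla was at 4959 CPM in the Irf4 group, 3071 in the Folr2 group and 196 in the Gata6 group. Timd4, listed for Folr2 as well as large macrophages, was at 65.4 CPM in the Gata6, 50.6 in the Folr2 and 13.6 in the Irf4 group. Cd5l, listed for large macrophages, was higher in the Folr2 group, at 325 CPM, than in the Gata6 group, at 230 CPM.

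The 7 genes together were lowest in the Gata6 group, at 171 CPM (158–184), and higher in the Folr2 and Irf4 groups, at 405 CPM (349–466) and 415 CPM (378–455). The last 2 could not be told apart, with a log2 ratio of Irf4 over Folr2 of 0.04 (-0.21–0.29). Macrophages with none of the 3 transcripts were between, at 251 CPM (240.3–262). The log2 ratio of Irf4 over Gata6 was 1.28 (1.11–1.46), above 0 in 6 of 6 libraries, from 0.68 to 1.78. For Folr2 over Gata6 it was 1.25 (1.01–1.48), above 0 in 5 of 6 libraries, from -0.37 to 1.35. The Folr2 group held as few as 5 cells in a library and 46 in library 4, and without library 4 that ratio was 0.97.

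Sqle showed the widest difference. It was at 5.88 CPM in the Gata6 group (3.68–8.90), 33.7 in the Folr2 group (19.3–54.8) and 36.3 in the Irf4 group (25.9–49.4). In the Gata6 group its libraries ran from 2.61 through a median of 4.39 to 11 CPM, and in the Irf4 group from 27.1 through 38.8 to 69.3 CPM. These ranges did not overlap. The log2 ratio of Irf4 over Gata6 was 2.63 (1.84–3.45), and that of Folr2 over Gata6 was 2.52 (1.49–3.52). At 1500 UMIs per cell, 6.11% of Irf4 cells (3.38–10.0%) and 1.45% of Gata6 cells (0.666–2.74%) had an Sqle UMI.

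Hmgcs1, Idi1 and Srebf2 had the same order of groups. Hmgcs1 was at 28.6 CPM in the Gata6 group (23.4–34.5), 90.6 in the Folr2 group (65.6–122) and 90.7 in the Irf4 group (73.8–110.3). Idi1 was at 12.6 (9.22–16.7), 37.9 (22.5–60.0) and 45.3 CPM (33.6–59.8), and Srebf2 at 46.5 (39.8–53.9), 115.9 (87.3–151) and 119 CPM (99.3–141). The log2 ratios of Irf4 over Gata6 were 1.67 (1.26–2.07) for Hmgcs1, 1.85 (1.25–2.46) for Idi1 and 1.35 (1.02–1.69) for Srebf2, each above 0 in 6 of 6 libraries. For Srebf2 the libraries ran from 27.0 to 65.2 CPM in the Gata6 group and from 81.2 to 147 CPM in the Irf4 group, without overlap. For Hmgcs1 they ran from 23.2 to 72.8 CPM and from 61.2 to 191 CPM, and for Idi1 from 5.39 to 33.6 CPM and from 20.3 to 86.6 CPM, so these ranges overlapped. The Folr2 over Gata6 ratios were 1.67, 1.60 and 1.32, and the Idi1 ratio was 0.43 without library 4.

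Insig1, Fdft1 and Mvd differed less. Insig1 was at 46.5 CPM in the Gata6 group (39.8–53.9), 75.9 in the Folr2 group (53.1–105) and 80.7 in the Irf4 group (64.8–99.3), a log2 ratio of Irf4 over Gata6 of 0.80 (0.41–1.17). Fdft1 had 34, 6 and 22 UMIs in the Gata6, Folr2 and Irf4 groups, or 9.08, 12.6 and 19.9 CPM, and its Irf4 over Gata6 ratio was 1.14 (0.29–1.95), or 0.79 at equal weight of libraries. Its opposite-strand neighbour Ctsb was at 1785, 4576 and 2977 CPM in these groups. Mvd was at 21.6 CPM in the Gata6 group (17.2–26.9), 37.9 in the Folr2 group (22.5–60.0) and 23.6 in the Irf4 group (15.4–34.5). Its Irf4 over Gata6 ratio was 0.12 (-0.57–0.78) and was above 0 in 1 of 6 libraries. Mvd, the gene with the widest gap between macrophages and B cells, was thus not separated between these groups.

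**Figure D3:**
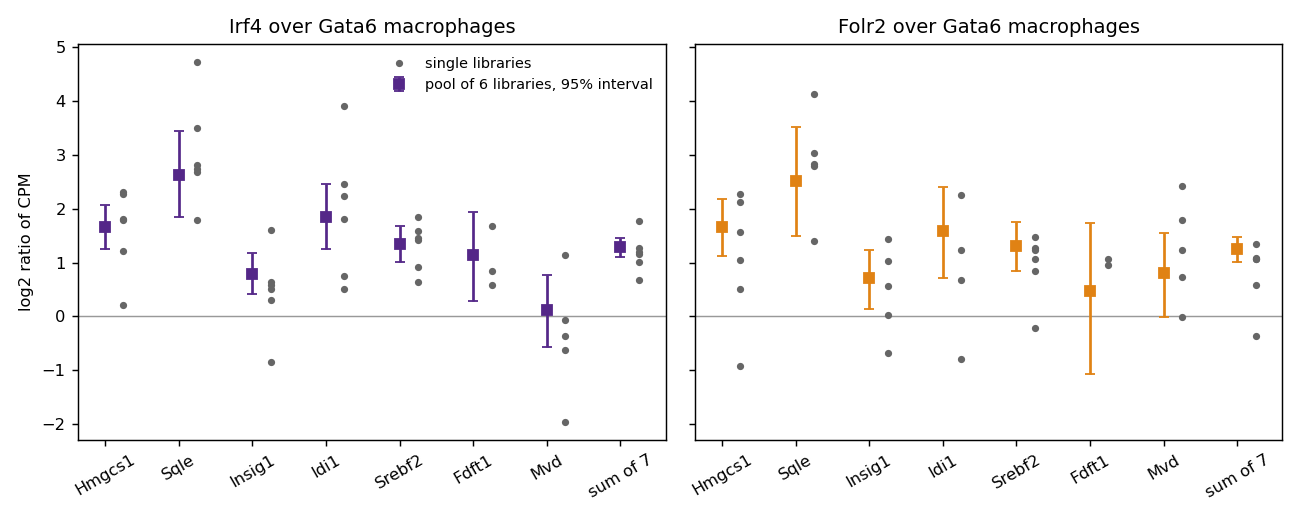
Log2 ratio of CPM of the Irf4 group, left, and the Folr2 group, right, over the Gata6 group; squares are the pool of 6 libraries with exact 95% intervals, and grey points are single libraries with a UMI in both groups. The sum of the 7 genes lies at 1.28 and 1.25, and Mvd at 0.12 in the left panel has an interval that spans 0.

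At least 2-fold higher levels in the Irf4 than in the Gata6 group were found for 5 of the 7 genes (Hmgcs1, Sqle, Idi1, Srebf2 and Fdft1), against 12.5% of 8800 features. The first 4 of these were higher in all 6 libraries, against 8.99% of features. The count of 5 ran from 4 to 6 over the alternatives. Fdft1, higher in 4 of 6 libraries, was at 0.97 with at least 1000 genes per cell or with stricter gates. It was at 0.99 without genes above 1% of UMIs and 0.79 at equal weight of libraries. The ranges over libraries did not overlap for 2 of the 7 (Sqle and Srebf2) and for 5.14% of features. In the Folr2 over Gata6 pair 4 of 7 (Hmgcs1, Sqle, Idi1 and Srebf2) were at least 2-fold higher, against 14.9% of 8767 features. That count ran from 3 to 5 over the alternatives. In this pair 0 of 7 were higher in all 6 libraries, against 5.94% of features. The library ranges were apart for 0 of 7, against 2.35% of features. Idi1 was higher in 3 of 6 libraries and at 0.56 at equal weight of libraries. The median feature was itself shifted in this pair, by 0.29 on the log2 scale over genes of at least 20 CPM, and with median-of-ratios scaling the ratio of the sum in it was 0.95. The medians of the 7 genes were 1.34 for Irf4 over Gata6 and 1.3 for Folr2 over Gata6, against 0.08 and 0.29 over all features, with 1 CPM added. Between the Irf4 and Folr2 groups 0 of 7 were past 2-fold in either direction, against 24.4% of 8850 features, but the intervals of single genes in the small Folr2 group were wide.

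Some properties moved with the groups. The same 5 B cell genes were at 125 CPM in the Irf4 group, from 34.7 to 251 by library with all 5 seen, at 8.28 CPM in the Gata6 group and at 2900 CPM in B cells. The dendritic cell check genes were at 29.9 CPM in the Irf4 group and 8.28 in the Gata6 group, with Xcr1 and Clec9a at 0 UMIs in the Irf4 group. The Irf4 group took 104 of its 236 cells from library 6, where its summed level was also above that of the Gata6 group, at 439 against 274 CPM. Depth also differed, as the medians above show. Among the deeper cells of each library's macrophages the summed level was 376 CPM in the Irf4 group (128 cells) and 164 CPM in the Gata6 group (386 cells), a log2 ratio of 1.19 (0.98–1.41). Among the shallower cells it was 507 CPM (108 cells) and 191 CPM (238 cells), a ratio of 1.41 (1.09–1.73). The Folr2 over Gata6 ratio was 1.34 (1.05–1.62) in the deeper and 1.00 (0.54–1.44) in the shallower cells. The part of the B cell and dendritic cell RNA in the result was not tested.

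The rest of the pathway was described in the same pairs. For 8 other sterol enzymes measured in the Irf4 and Gata6 groups, the median log2 ratio was 0.90 with 1 CPM added, or 1.02 without. Of the 8, 4 were over 2-fold higher in the Irf4 group and 0 lower, beside 12.5% of all features higher. These were the demethylase Cyp51 at 2.35 (1.84–2.86), the methylsterol oxidase Msmo1 at 1.59 (1.17–2.00), the desaturase Sc5d at 1.18 (0.62–1.73) and the ketosteroid reductase Hsd17b7 at 1.12 (0.12–2.08). The first 3 were higher in 6 of 6 libraries and Hsd17b7 in 5, and Hsd17b7 was at 0.69 without library 1, 0.57 without library 2 and 1.81 without library 6. Ebp was at 0.03 (-0.82–0.81) and Lbr at -0.67 (-1.48–0.07). In the Folr2 over Gata6 pair 6 of 11 were over 2-fold higher and 0 lower, beside 14.9% of all features higher. The list median there was 0.91 with 1 CPM added, or 1.07 without. Of these 6, Nsdhl fell under 2-fold without library 1, 4 or 5, to 0.14 at the lowest, and Hsd17b7 without library 4, to 0.43. Cyp51 was at 2.03 (1.33–2.70), Fdps at 1.98 (0.64–3.21), Dhcr7 at 1.98 (-0.20–3.88, on 4 UMIs in the Folr2 group) and Msmo1 at 1.88 (1.36–2.38). Pmvk at 0.32 (-1.22–1.57) and Lbr at 0.08 (-0.88–0.92) had the lowest ratios.

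Genes of sterol excess and efflux went both ways. In the Irf4 over Gata6 pair 2 of 5 measured genes of sterol excess and efflux were over 2-fold lower in the Irf4 group, against 9.41% of features, Mylip at -2.02 (-2.96 to -1.21) and Abca1 at -1.38 (-1.59 to -1.18). Soat1 was higher, at 1.16 (0.95–1.36), though at 0.94 without library 1 and 0.96 without library 6. Abcg1 was at 0.61 (0.12–1.07, higher in 2 of 6 libraries) and Nr1h2 at -0.67 (-1.18 to -0.20). In the Folr2 over Gata6 pair Soat1 was at 1.54 (1.28–1.79) and Mylip at -1.18 (-2.27 to -0.27), or -0.79 without library 4 and -0.98 without library 5. Ch25h was at 4.22 (3.42–5.08, higher in 3 of 6 libraries). Its value rested on library 6, at 755 CPM in the Folr2 group, and without that library 6 of its 45 UMIs were left there and the ratio was 1.57 (-0.06–2.98). Of the 3 uptake and transport genes none was past 2-fold between the Irf4 and Gata6 groups, against 21.9% of features past it either way. Only Npc1, at 1.14 (0.71–1.55), was over 2-fold higher in the Folr2 than in the Gata6 group, against 14.9% of features. Npc1 was at 0.86 without library 1. Among the SREBP machinery Mbtps2, a protease that frees SREBP2, was at 1.55 (0.72–2.37) in the Irf4 over Gata6 pair and 1.71 (0.60–2.72) in the Folr2 over Gata6 pair, or 2.60 without library 4. Scap had 0 UMIs in the Folr2 group and 42 in the Gata6 group, which at a floor of 3 UMIs is at least 1.77-fold lower. Without library 4, which held 46 of the 103 cells, that floor gave no bound below the Gata6 level. Of the fatty acid genes, Scd2 at 4.35 (3.49–5.32) and Scd1 at 3.40 (2.33–4.59, higher in 3 of 6 libraries) were higher in the Irf4 than in the Gata6 group, and Acaca at -2.03 (-2.60 to -1.51) was lower. Scd2 was at 5.16 without library 5, and Scd1 at 2.63 without library 1 and 4.11 without library 3. Me1 was at -1.02 (-2.30–0.06), and from -1.83 (without library 6) to -0.64 (without library 3) when single libraries were left out. In the Folr2 over Gata6 pair the fatty acid genes past 2-fold were Scd2 at 2.28 (0.80–3.66, and from 1.69 without library 3 to 3.0 without library 5), Fads1 at 1.76 (0.09–3.23) and Me1 at 1.11 (0.18–1.95, but 0.61 without library 5 and 0.94 without library 1), higher, and Acaca at -1.42 (-2.13 to -0.79), lower. In the isoprenoid branch Pdss1 was at 1.18 (-0.14–2.43) in the Irf4 over Gata6 pair, or 0.86 without library 1 and 0.89 without library 2. None of the 3 genes of that branch measured in the Folr2 over Gata6 pair was past 2-fold, against 20.6% of features either way.

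Over the 6 library numbers the summed level in macrophages was 224, 199.6, 268, 262, 250.1 and 328 CPM in libraries 1 to 6, and in B cells 258, 248, 278, 208, 289 and 438 CPM. In T/NK cells it ran from 75.0 CPM in library 4 through a median of 146 to 244 CPM in library 6, which held 18 such cells. Library 6 was the highest in all 3 classes. The highest library was 1.64-fold (1.43–1.88) above the lowest in macrophages and 2.11-fold (1.88–2.36) in B cells. Without library 6 these ratios, as log2, went from 0.72 to 0.42 and from 1.08 to 0.47.

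**Figure D4:**
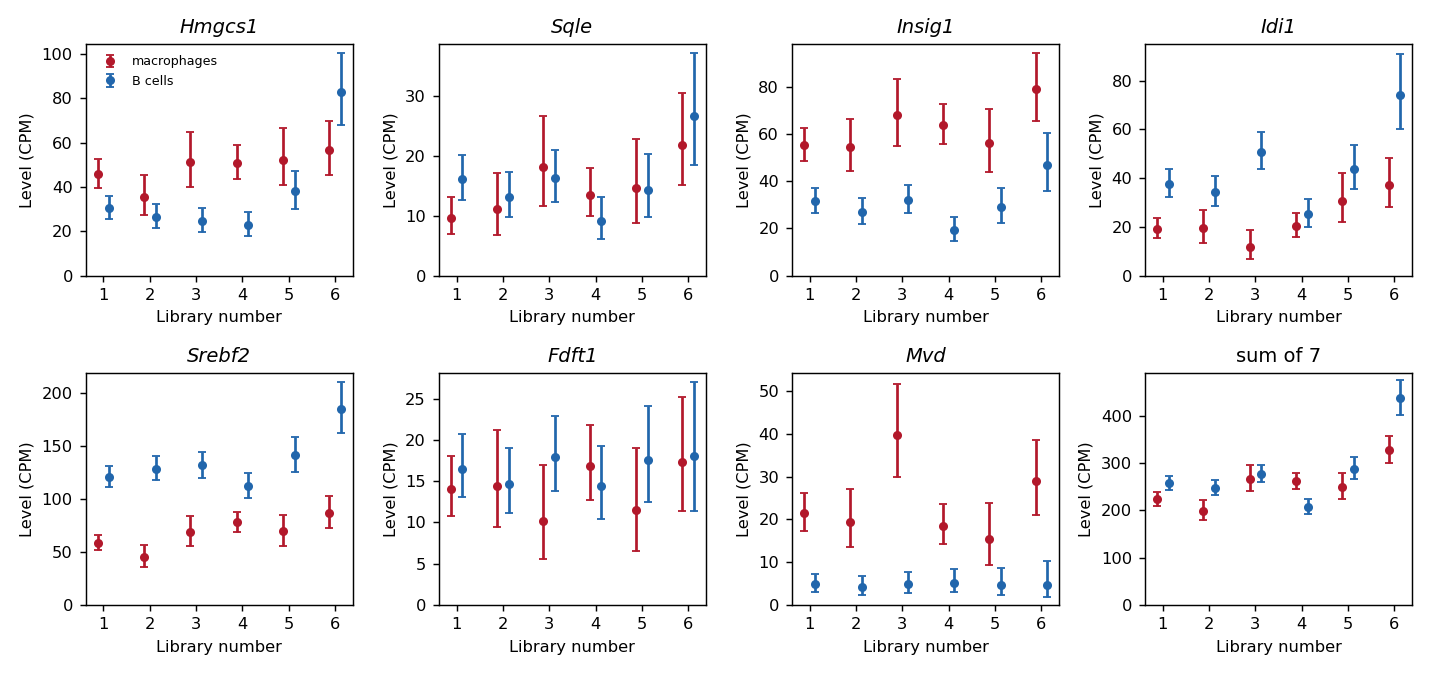
Level (CPM) of each of the 7 genes and of their sum in macrophages and B cells of each library number, with exact Poisson 95% intervals; library numbers are not matched to conditions. In both classes 6 of 7 genes are highest in library 6, and Mvd stays between 4.19 and 5.22 CPM in B cells.

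Hmgcs1, Sqle, Insig1, Idi1, Srebf2 and Fdft1, 6 of the 7, were highest in library 6 in macrophages and again in B cells. Library 6 was also the highest for 38.2% of 8710 features in macrophages and 42.2% of 9255 in B cells, and it was the shallowest, with a median of 2783 UMIs per kept cell. The same 6 genes were lowest in library 4 in B cells, where 30.5% of features were lowest. In macrophages the lowest library was number 2 for Hmgcs1, Insig1 and Srebf2, number 3 for Idi1 and Fdft1 and number 1 for Sqle. The highest library was at least 2-fold above the lowest for 3 of 7 genes in macrophages (Sqle, Idi1 and Mvd) and 4 of 7 in B cells (Hmgcs1, Sqle, Insig1 and Idi1), against 49% and 46.7% of features. The widest of these was Hmgcs1 in B cells, at 3.63-fold (2.66–4.98). Fdft1, at 1.71-fold in macrophages (0.867–3.53) and 1.25-fold in B cells (0.722–2.12), could not be shown to differ between its highest and lowest libraries.

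Within libraries, the level ran with depth in opposite directions in the 2 large classes. When macrophages were divided at the median depth of each library, the shallower 1388 cells had 301 CPM of the 7 genes (285–318) and the deeper 1385 had 224 CPM (214–233). Among B cells the shallower 1474 had 230.5 CPM (218–244) and the deeper 1474 had 282 CPM (273–292). Hmgcs1 in macrophages was at 65.1 CPM in shallower and 40.0 in deeper cells, and Idi1 in B cells at 24.5 and 47.2 CPM. Srebf2 in B cells was nearly level, at 126 (117–136) and 131 CPM (125–138).

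Within single cells the genes were seen together to different degrees. After thinning to 1500 UMIs, 2690 macrophages and 2910 B cells remained, and 83 and 38 cells were too shallow. Of macrophages with an Fdft1 UMI, 62.7% (49.1–75.0%) had a UMI of another of the 7, against 28.2% (26.5–29.9%) of those without. For Sqle the shares were 54.7% (41.7–67.2%) and 28.0% (26.3–29.8%), and for Idi1 49.5% (39.4–59.6%) and 27.0% (25.3–28.8%). Hmgcs1, at 40.0% (33.2–47.1%) and 24.1% (22.4–25.8%), and Insig1, at 33.9% (28.0–40.1%) and 22.6% (21.0–24.3%), also had no overlap of intervals. The intervals overlapped for Srebf2, at 27.9% (22.5–33.8%) and 22.3% (20.6–24.0%), and for Mvd, at 28.7% (19.5–39.4%) and 27.4% (25.7–29.1%). In B cells the gap was widest for Hmgcs1, at 53.6% (44.9–62.1%) against 25.6% (24.0–27.3%), and the intervals overlapped for Sqle, at 42.9% (28.8–57.8%) and 28.0% (26.3–29.6%), only at their margins. They overlapped fully for Fdft1, at 35.3% (24.1–47.8%) and 27.5% (25.8–29.2%), and Mvd, at 33.3% (16.5–54.0%) and 28.5% (26.9–30.2%). Cells of 1 library share its free RNA and depth, and these shares describe the pool. The macrophage pool also mixes groups with different levels. At 1500 UMIs, 21.5% of Gata6, 38.0% of Folr2 and 46.3% of Irf4 cells had a UMI of any of the 7. The part of this mix in the shares was not tested, and no such shares were computed for other genes.

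Over the 18 points of 6 libraries in 3 classes, the genes whose level ran most like the sum of the 7 were Hnrnpab (Pearson r 0.95), Syncrip (0.95), Nars (0.94), Lat2 (0.93), Dot1l (0.93), Nr4a1 (0.93), Aars (0.92), Itgav (0.92), Strap (0.92) and Larp4 (0.92), among 3731 genes of at least 20 CPM in each class. Once class means were subtracted, the nearest were Srsf3, Strap, Itgav, Hnrnpab, Nars, Arl8b, Gna13, Larp4, Azin1 and Ddx39b, with r from 0.94 to 0.93. The points share libraries, depths and the T/NK class with its few UMIs. With macrophages and B cells alone, 12 points chosen after those values were seen, Cyp51 was among the nearest 10 of 3994 genes, at 0.96.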

How the data were processed

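The authors deposited 1 table of raw counts (UMIs of each feature in each barcode) for the 6 libraries. Per the paper, reads were mapped with Cell Ranger 1.3.1 against human and mouse, while the submitters' processing notes list Cell Ranger 2.2, Seurat 3.0, mm10 and GRCm38. The annotation and the use of strand are not given in the sources used here. The 10x 5′ kit was used, so CPM of different genes are not compared as levels. No normalization had been applied, and free RNA was not removed.

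Kept were barcodes in which 500 or more genes were seen, log genes divided by log UMIs reached 0.8, and mitochondrial UMIs did not pass 10%, which left out 95. Cells were classed by the UMI gates given with the results, and macrophage groups by 1 UMI of Gata6, Folr2 or Irf4. Counts were summed per class and divided by its UMIs (CPM), with exact Poisson 95% intervals, exact conditional intervals for ratios and Clopper-Pearson intervals for shares (Python 3.11.15, numpy 2.4.6, scipy 1.17.1). A class at 0 was read as at most 3 counts. Features with a mean of at least 5 CPM over a pair of classes formed the background, and a log2 ratio of 1, or 2-fold, was called. Scrublet in scanpy 1.11.5 called 47 doublets (0.606%), which were kept. The ratio intervals were tested only on simulated Poisson counts with no spread between cells or libraries. That is the model they assume, so the test says nothing about such spread.

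With 1 library per condition and no map from library number to condition, the table is 1 sample and no test was made. The members, lists, gates and named genes were chosen with earlier results of these data known. Named are all 7 members, up to 4 genes per list and pair past 2-fold, and the 10 genes most like the sum. Some genes of the lists are not reported here, and counts, medians and sums over the lists leave them out. Gene positions are from GENCODE vM21. Alternatives tried were other cell filters, stricter gates, doublets left out, other scalings, thinning, equal weight of libraries, the median of the members, the sum without Srebf2, and leaving out each library.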

Additional observations from a re-analysis of the deposited data

Results flagged for a closer look

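In the 1277 cells that fell in no class, which the comparisons do not use, the 7 genes summed to 369 CPM (351–387), above the 249 CPM of macrophages and the 267.5 CPM of B cells. Library 6 held 514 of these cells, against 284 of the 2948 B cells and 517 of the 2773 macrophages. In library 6 itself the sum was 438 CPM in B cells and 328 CPM in macrophages. The part of this library mix in the excess was not tested. In the cells of no class Srebf2 stood at 143 CPM (132–155) and Idi1 at 69.6 CPM (62.0–78.0). Both were above their pooled levels in all 3 classes, but the Srebf2 interval overlapped that of B cells. In library 6, B cells had Idi1 at 74.3 and Srebf2 at 185 CPM. Of the cells of no class, 697 had 1 to 3 UMIs of Cd79a and Cd79b, and their Srebf2 was at 159 CPM (145–174) and their Mvd at 5.45 CPM (3.11–8.84). In the other 580, which had no UMI of either gene and a median of 1956 UMIs, Srebf2 was at 108 CPM (91.6–127) and Mvd at 15.5 CPM (9.58–23.7). The 5 B cell check genes were at 1495 CPM in the cells of no class and the macrophage check genes at 2426 CPM.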

How the results depend on the processing

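Of 298 alternatives to the 17 member ratios past 2-fold, 298 kept the sign and 286 stayed past 2-fold, while 34 alternatives brought a further ratio past it. For the 77 ratios of pathway list genes past 2-fold, with UMIs in both classes, only leaving out single libraries was run, after seeing the data. Here 458 of 458 values kept the sign and 419 stayed past 2-fold. Values in which a class fell to 0 UMIs without a library are not in this count. Genes at 0 UMIs in a class of the pair are not in it either. Among those, Scap at a floor of 3 UMIs kept its sign in 5 of 6 values in the Folr2 over Gata6 pair and 5 of 6 in the Irf4 over Folr2 pair. The log2 ratio of the sum of macrophages over B cells, -0.11, was 0.11 without genes above 1% of UMIs, 0.081 with cells thinned to 1500 UMIs and 0.40 without Srebf2, and ran from -0.19 to -0.058 when single libraries were left out. For macrophages over T/NK cells (0.89) it was 0.69 with at least 1000 genes, 1.44 with stricter gates, 1.09 without genes above 1% of UMIs, 1.38 when thinned, 1.32 as the median, 1.43 without Srebf2 and 0.38 with cells past both gates in both classes, and leaving out libraries gave 0.76 to 1.00. For B cells over T/NK cells (1.00) it was 1.51 with stricter gates, 1.3 when thinned, 0.48 with cells past both gates and 1.20 with B cells from 2 UMIs. The 2 members past 2-fold there became 5, 4, 0 and 4 under these settings, 4 with T/NK cells free of macrophage gate UMIs, and 2 to 4 with libraries left out. Folr2 over Gata6 (1.25) was 0.95 with median-of-ratios scaling and 0.84 at equal weight of libraries, and 0.97 (without library 4) to 1.37 with libraries left out. Irf4 over Gata6 (1.28) was 1.59 when thinned. Irf4 over Folr2 (0.04) was 0.33 at equal weight and 0.41 when thinned, with 3 and 1 members past 2-fold, and -0.083 to 0.37 and 0 to 2 with libraries left out. The log2 ratio of the highest over the lowest library was 0.43 (median of ratios), 1.00 (median) and 0.42 to 0.72 (libraries left out) in macrophages. In B cells it was 1.25 with stricter gates, 0.71, 1.24, 1.40 without Srebf2 and 0.47 to 1.08, and in T/NK cells 4.42 as the median. The causes of these moves were not tested.

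Depth limits single genes most in T/NK cells and the Folr2 group, where Fdft1 had 17 and 6 UMIs. No paired analysis was possible because no test was made. The settings with cells past both gates, B cells from 2 UMIs and T/NK cells free of macrophage gate UMIs, the likeness over 12 points, and the ratios within deeper and shallower macrophages, were chosen after seeing the data.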
